A study of Homo sapiens with 32 samples.

Results

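H3K27me3 islands of MDA-MB-231 cells treated for 24 h with a p38 MAP kinase inhibitor (labelled P38i) were compared with those of control cells. MDA-MB-231 is an established triple-negative breast cancer line with a mesenchymal phenotype. The labels give the treatment of the control cells as none, name no vehicle, and give neither the compound nor the dose of the inhibitor. The 8 libraries were chosen by their titles, 4 for P38i and 4 for control, out of 32 samples in the series. The others were 4 H3K27me3 libraries of cells given the p38 inhibitor together with an EZH2 inhibitor (combo), 4 of cells given the EZH2 inhibitor alone (EPZ), and 16 IgG libraries, which were not used here. All groups are the same line, and the labels do not say whether the replicates were separate cultures, so the p-values measure the spread between libraries, which may be technical.

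H3K27me3 is the repressive histone mark that Polycomb repressive complex 2 deposits through its catalytic subunit EZH2, and it lies in broad domains over silent developmental, tissue-restricted and gene-poor regions. p38 kinases are stress- and cytokine-activated kinases encoded by MAPK14, MAPK11, MAPK12 and MAPK13. p38 can phosphorylate EZH2, and the series title names an EZH2 phosphorylation site that acts on p38 signalling. ChIPmentation is chromatin immunoprecipitation in which sequencing adapters are inserted on the beads by the transposase Tn5. The measure throughout is where an island (a region called enriched, on a grid of 200 bp) was listed in a library. An island list holds no read count, so a value describes what was called and not how much of the mark was present.

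P38i libraries held 58516, 80543, 55334 and 73843 islands, against 53290, 60272, 61081 and 76736 in control libraries. The islands covered 649, 624, 674 and 533 Mb in P38i libraries and 669, 619, 586 and 484 Mb in control libraries, with median widths of 6.6, 4.4, 7 and 4.6 kb in P38i and 7.4, 6.4, 6 and 4 kb in control. The groups overlapped on every measure, and the mean difference in covered length was 30.8 Mb (2-sided exact permutation p = 0.514). With 4 libraries against 4 the smallest such p is 0.0286. Control replicate 4 had the shortest covered length of the 8 libraries, and without it the mean difference was -4.25 Mb (exact permutation p = 1). Bases in the islands of every library of a group came to 400.2 Mb in P38i and 360.1 Mb in control.

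Genes that this line uses were mostly outside islands, as were most genes, since 13829 of 19974 had no island in the 8 libraries. Of 20 housekeeping genes, none had an island in any of the 8 libraries, and 16 of 17 genes known to be active in MDA-MB-231 had none. The genes for the p38 kinases, MAPK14, MAPK11, MAPK12 and MAPK13, had no island in any P38i or control library, and neither did EZH2. Of 48 p38 pathway genes 43 were uncovered, as were 29 of 32 Polycomb genes. The 3 tested p38 pathway genes had a median difference of 2.14 percentage points, and none passed the test.

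Promoters separated P38i from control in 2 genes of 15812 with a promoter sequence in RefSeq (GRCh38.p14, 250 bases before to 50 after 1 transcript start per gene). That start can lie inside the span of the gene, as it does for KRT84 and SPX. A promoter counted as covered in a library only when all of it lay in islands. A promoter covered in part counted as not covered. The promoters of KRT84, a hair and nail keratin, and of FAM3D, a secreted cytokine-like protein of the gut, were covered in 4 of 4 P38i libraries and in 0 of 4 control libraries. No promoter showed the reverse, 581 were covered in all 8 libraries and 13891 in none. The sequences are shown with those of ZNF853 and SPX, called genes described below whose promoters were not fully covered in any library. The sequences serve as examples of promoters with few and with many CG. The promoter of CCR9, also called and also not fully covered in any library, holds 4 CG, so the examples do not stand for a rule. Each is 5′ to 3′ on the strand of the gene, with every CG in capitals. The motif searched was CG, which reads the same on both strands.
KRT84, chr12:52385603-52385902, minus strand: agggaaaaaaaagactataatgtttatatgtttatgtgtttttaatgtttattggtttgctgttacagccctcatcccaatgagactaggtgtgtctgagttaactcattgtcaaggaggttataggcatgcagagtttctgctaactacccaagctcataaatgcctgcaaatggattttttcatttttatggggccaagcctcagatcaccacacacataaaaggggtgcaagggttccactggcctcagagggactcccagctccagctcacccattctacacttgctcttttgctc
FAM3D, chr3:58666725-58667024, minus strand: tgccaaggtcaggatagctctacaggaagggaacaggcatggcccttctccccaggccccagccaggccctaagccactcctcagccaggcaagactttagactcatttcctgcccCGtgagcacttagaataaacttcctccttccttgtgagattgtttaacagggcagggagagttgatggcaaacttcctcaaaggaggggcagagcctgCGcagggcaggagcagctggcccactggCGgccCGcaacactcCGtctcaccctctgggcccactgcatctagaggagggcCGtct
ZNF853, chr7:6615360-6615659, plus strand: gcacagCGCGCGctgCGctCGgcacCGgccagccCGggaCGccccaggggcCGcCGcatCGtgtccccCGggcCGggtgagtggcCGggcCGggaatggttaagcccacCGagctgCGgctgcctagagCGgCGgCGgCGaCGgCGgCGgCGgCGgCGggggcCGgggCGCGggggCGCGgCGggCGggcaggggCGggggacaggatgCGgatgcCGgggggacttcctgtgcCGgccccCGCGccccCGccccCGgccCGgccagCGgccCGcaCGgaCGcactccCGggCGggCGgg
SPX, chr12:21527702-21528001, plus strand: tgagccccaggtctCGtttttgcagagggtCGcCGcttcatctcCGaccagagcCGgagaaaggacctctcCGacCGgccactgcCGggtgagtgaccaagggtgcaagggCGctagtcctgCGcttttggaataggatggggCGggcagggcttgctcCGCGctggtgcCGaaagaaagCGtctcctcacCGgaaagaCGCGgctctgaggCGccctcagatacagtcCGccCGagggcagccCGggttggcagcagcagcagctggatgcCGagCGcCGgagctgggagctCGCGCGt
The KRT84 promoter holds 0 CG and that of FAM3D holds 6. ZNF853 has 50 and SPX 28, while the median was 22 over all promoters and 2 over the promoters covered in all 8 libraries. The share of promoters with fewer CG was 19.4% for FAM3D, 98.3% for ZNF853 and 64.5% for SPX. A CG count is a description of these letters and not of a binding site. Over the whole gene, KRT84 was covered to 33.9, 40.9, 48.5 and 46.6% in P38i and to 21.2, 16.9, 22.6 and 0% in control, a difference that did not pass the test across genes (limma adjusted p = 0.216). FAM3D overlapped between the groups, at 53.6, 52.0, 52.5 and 32.4% in P38i and 45.7, 24.3, 7.07 and 20.3% in control (limma adjusted p = 0.395).

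Coverage over genes asked which loci gained or lost islands with the inhibitor. For each protein-coding gene the percent of its span and 2.5 kb on each side that lay in islands was taken, and 4105 of 19974 genes, those with a mean from 5 to 95% over the 16 libraries, were tested. Coverage rose over 12 genes with P38i, 0.292% of those tested, and passed the test downward over none (limma with Benjamini-Hochberg adjustment, 1 fit of 16 libraries, threshold 0.05). At an unadjusted p under 0.05 there were 385 genes higher and 31 lower, together 10.1% of those tested. Over all tested genes the median difference was 2.90 percentage points, with 2912 genes above 0 and 1181 below, so single differences are to be read against that shift. The median fell to 0.683 points without control replicate 4 and to 0.667 points with the narrowest library of each group left out.

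For 7 of the 12, named further below, the mean of the other 12 libraries was under 5%. These entered the test only through P38i coverage, so their adjusted p may be too low. Of the 12, SPX and TAC3 belong to the list of neuropeptides and hormones. SPX encodes spexin, a peptide hormone linked to feeding and pain (chromosome 12, 21526296 to 21532947). Its window was covered to 53.6, 27.5, 38.2 and 46.3% in P38i and to 0, 2.12, 0.403 and 0% in control, a difference of 40.8 ± 4.86 points (SE, limma adjusted p = 0.000854). TAC3 encodes neurokinin B, a tachykinin that acts on the reproductive axis, and was covered to 45.1, 38.2, 45.1 and 57.2% in P38i and to 26.0, 0, 0 and 0% in control (adjusted p = 0.0216, limma). All 4 P38i libraries lay above the 1 control library with an island there, replicate 1. LACRT, the secreted tear protein lacritin, had the largest difference of the 12, with 56.0, 82.4, 69.2 and 82.4% in P38i against 0, 50.6, 0 and 0% in control, a difference of 59.8 ± 10.7 points (SE, limma adjusted p = 0.0227). Control replicate 2 lay 5.34 points below the lowest P38i library. DEFB108B, a beta-defensin of a multigene family in which short reads could be shared, was covered to 50.5, 54.7, 48.4 and 40% in P38i and to 0, 0, 37.9 and 0% in control (limma adjusted p = 0.0216).

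Cell-surface genes were CCR9 and LINGO4. CCR9, the receptor for the gut and thymus chemokine CCL25, was covered to 26.6, 38, 42.1 and 36.2% in P38i and to 18.1, 0, 0 and 0% in control (chromosome 3, 45886064 to 45903174, limma adjusted p = 0.0219). Islands there shared 2 stretches of 0.8 and 0.6 kb in all 4 P38i libraries that no control library covered. Both stretches also lay in the span of LZTFL1. LINGO4, a leucine-rich repeat membrane protein of the nervous system, had 20.9, 40.6, 52.4 and 39.4% in P38i and no island in control (chromosome 1, 151800264 to 151805419, limma adjusted p = 0.0141).

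KRT27, ALOX15 and ZNF853 stood for other classes of gene. KRT27, a type I keratin of the inner root sheath of hair, was covered to 99.5, 75.3, 100 and 71.6% in P38i and to 56.7, 47.4, 47.4 and 38.1% in control (chromosome 17, 40776808 to 40782550, limma adjusted p = 0.0216). It was the 1 gene of the 12 with an island in every control library, so there the P38i coverage added to one already present. ALOX15, the 15-lipoxygenase that oxygenates polyunsaturated fatty acids, had 30.3, 21.4, 29.2 and 22.7% in P38i and 0, 0, 0 and 8.74% in control, a difference of 23.7 ± 2.73 points (SE, limma adjusted p = 0.000794). ZNF853, a zinc finger gene, had 27.8, 32.2, 21.9 and 16.1% in P38i and no island in control (chromosome 7, 6615610 to 6624290). Its difference was 24.5 ± 2.64 points (SE), with the smallest adjusted p of the 12 (limma adjusted p = 0.000688). The other 12 libraries were all at 0 there, so the gene entered the test, and had its spread, only through P38i. That p is therefore no measure of how firm the difference is. The 2.2 kb that all 4 P38i islands shared, at 6618201 to 6620400, lay inside the gene, downstream of the promoter shown above.

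The last 3 genes were ANKRD35, LOC124903734 and LOC107987433. ANKRD35, an ankyrin repeat gene, was covered to 23.9, 28.0, 19.5 and 15.6% in P38i and to 0, 0, 14.0 and 0% in control (limma adjusted p = 0.0447). LOC124903734 on chromosome 16 had 39.1, 36.1, 70.3 and 55.7% in P38i and 0, 0, 0 and 19.6% in control (limma adjusted p = 0.0219). LOC107987433 on chromosome 5, which lies within a longer gene, had 33.9, 29.4, 36.2 and 22.6% in P38i and no island in control (limma adjusted p = 0.0171). The 2 kb that its P38i islands shared also lay in TERT. For each of the 12 genes every P38i library lay above every control library. Only at LINGO4, CCR9, LOC107987433 and ZNF853 did the P38i libraries share positions in islands that overlapped no control island. At DEFB108B, ALOX15 and ANKRD35 no position was covered in all 4 P38i and in no control library. At the remaining called genes such positions lay in islands that overlapped a control island in some or all P38i libraries. The 12 were short, with a median span of 6.59 kb against 33.7 kb over the genes tested.

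**Figure D1:**
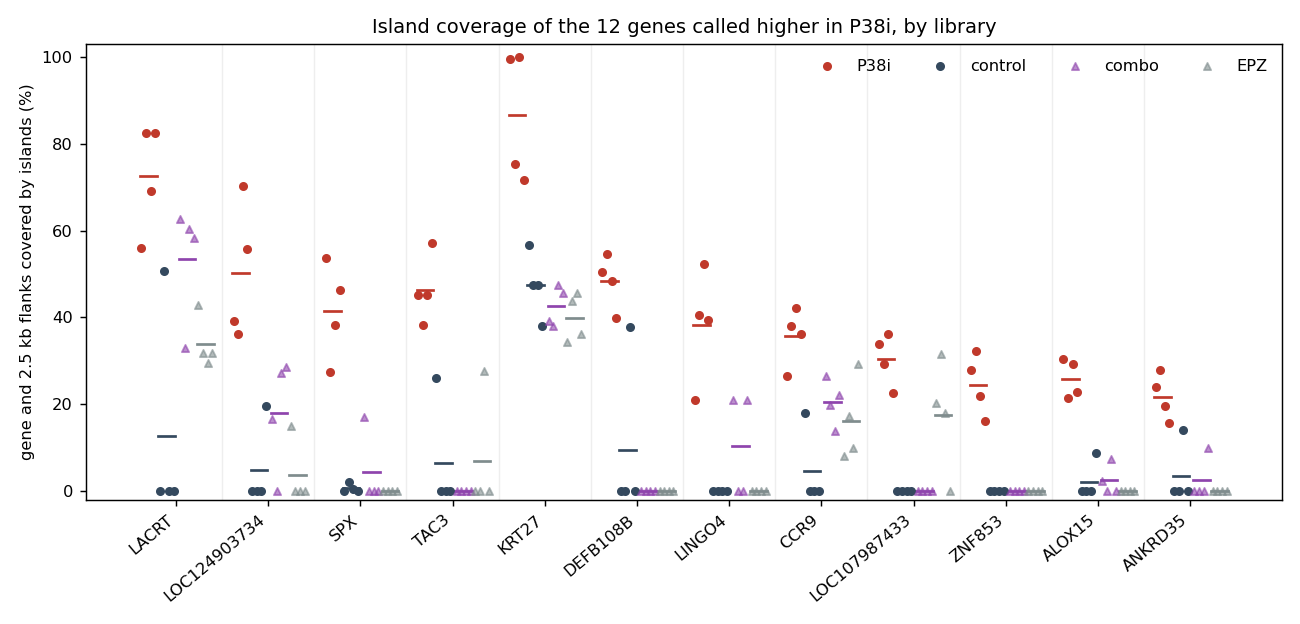
Percent of each gene and its 2.5 kb flanks covered by islands (y axis) for the 12 genes called higher in P38i, with 1 point per library, 4 libraries per group, and a bar at each group mean. P38i points lie above all control points for each gene, and the combo and EPZ libraries, drawn as triangles, lie at 0 for ZNF853 and DEFB108B.

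These calls rest on a spread estimated from all 16 libraries. In a fit of the 8 libraries alone none of the 12 passed, with adjusted p from 0.0618 for LOC107987433 to 0.323 for ANKRD35 (limma). With each list trimmed to the shortest covered length by dropping its narrowest islands, 4 of the 12 genes were still tested and none passed, while OR6C76, an olfactory receptor, was called higher and MSGN1, a regulator of paraxial mesoderm, and RNF144B lower. OR6C76 and MSGN1 were named after their values were seen. Leaving out the narrowest P38i and control library, an alternative chosen after the data were seen, kept 4 of the 12, SPX, ZNF853, ALOX15 and LOC124903734. In 8 of the 12 genes at least 1 of the 4 groups was at 0 in all its libraries, so the shared spread includes a group without any, and these p-values may be too low. In 7, SPX, TAC3, DEFB108B, LINGO4, ZNF853, ALOX15 and ANKRD35, the mean of the other 12 libraries was under 5%, so these genes entered the test only through their P38i coverage.

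No gene passed downward. The 5 genes with the largest moderated t in that direction were TAS2R9, RNF144B, SLCO1C1, LOC127898563 and PAX9, with limma adjusted p from 0.135 to 0.266. PAX9, a paired-box regulator of tooth and pharyngeal pouch development, was covered to 0, 0, 0 and 2.47% in P38i and to 17.9, 28.4, 45.5 and 8.96% in control. The 2 groups did not overlap there. RNF144B, a ubiquitin ligase, had 21.5, 8.52, 31.9 and 17.3% in P38i and 40.2, 45.8, 43.2 and 26.8% in control, where 1 P38i library lay above the lowest control library. It passed in the trimmed lists at -25.6 points (limma adjusted p = 0.0299). SLCO1C1, a thyroid hormone transporter, had 23.4, 23.7, 17.1 and 18.0% in P38i and 55.5, 46.6, 54.8 and 16.2% in control, and passed at -32.8 points without the narrowest library of each group (limma adjusted p = 0.00715). TAS2R9, a bitter taste receptor, was listed at 10.0, 0, 0 and 0% in P38i and 83.5, 75.8, 0 and 53.8% in control. All 4 P38i libraries exceeded all 4 control libraries in 133 genes, 3.24% of those tested, and lay below them in 7, 0.171%. The 7 lower genes were PAX9, EXPH5, GPR37, OR4N5, OR6C2, MS4A5 and GADL1. Among genes just below the threshold on the higher side were RASGRP2, a Ras and Rap activator of blood cells, with 13.6, 22.1, 39.0 and 55.2% in P38i and no island in control (limma adjusted p = 0.055), and OTOP2, a proton channel, with 32.8, 39.6, 61.6 and 60.1% in P38i and 23.2, 0, 0 and 0% in control (limma adjusted p = 0.0567).

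Keratin genes lay above the shift of all genes. Keratins are the intermediate filament proteins of epithelia and hair, and their genes form a type II cluster on chromosome 12 and a type I cluster on chromosome 17. Of 55 keratin genes 27 were tested, 1 was called higher (KRT27) and none lower, and 22 differences were above 0 (81.5%), the middle one being 17.9 points. The whole set of tested genes had 0.292% called higher, 70.9% of differences above 0 and a median of 2.90 points. On chromosome 12 the difference was above 0 in 15 of 16 genes with a median of 22.6 points, while on chromosome 17 it was above 0 in 7 of 11 with a median of 2.20 points. KRT79, a keratin of hair follicle and sebaceous ducts, had 35.1, 39.1, 77.6 and 45.8% in P38i and 16.2, 32.4, 0 and 31.3% in control (limma adjusted p = 0.395). KRT78 had 15.4, 37.6, 42.6 and 0% in P38i and no island in control (limma adjusted p = 0.247), so that P38i replicate 4 matched the controls. KRT2, an epidermal keratin, stood at 51.0, 100, 82.6 and 85.8% in P38i and 93.7, 100, 90.5 and 54.9% in control, the 1 gene of the type II cluster with a difference below 0. Neighbouring genes share domains, so they are not independent. By library, 17, 17, 19 and 13 of the 55 keratin genes were at least 50% covered in P38i, against 18, 9, 9 and 8 in control, where control replicate 1 had as many as P38i. With trimmed lists the keratin median was 7.83 points over 23 genes and that of all genes 1.05.

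**Figure D2:**
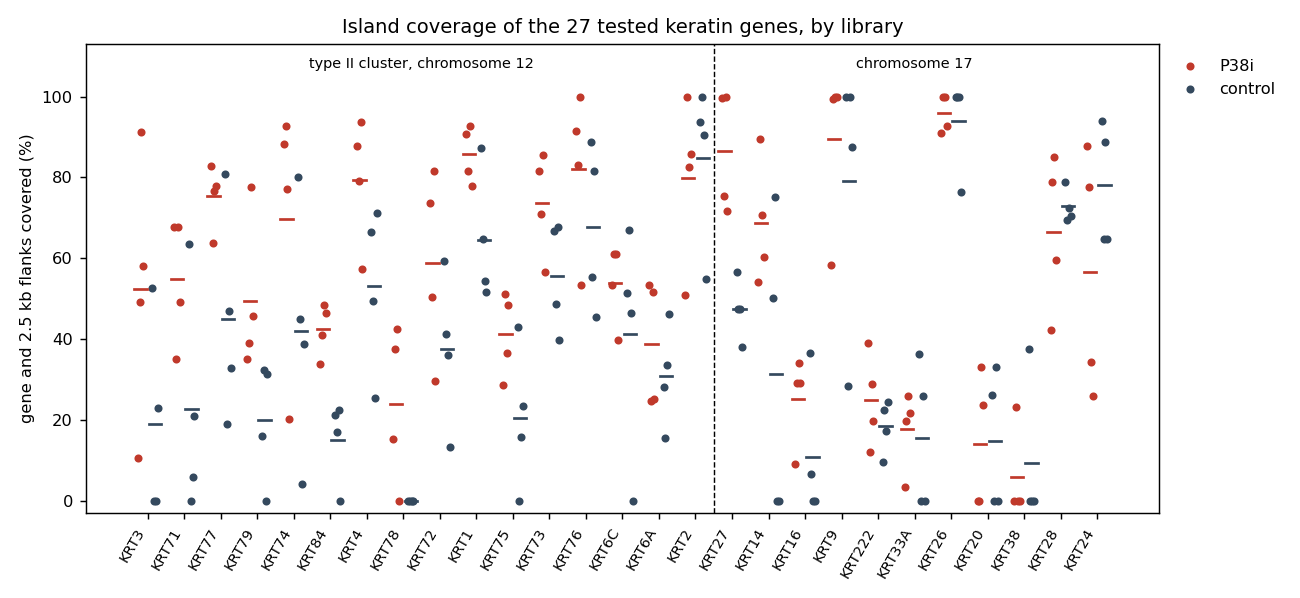
Percent of each tested keratin gene and its 2.5 kb flanks covered by islands (y axis), with 1 point per library and a bar at the mean of 4 P38i or 4 control libraries. In 15 of the 16 genes on chromosome 12 the P38i mean is the higher, and the points of most genes overlap between the groups.

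Other gene groups held 0 to 2 called members. Over all tested genes 0.292% were called higher and 385 of 4105 were higher at an unadjusted p under 0.05. Of 26 tested neuropeptide and hormone genes 2 were called higher, SPX and TAC3, with a median difference of 3.88 points. Of 9 tested chemokine receptors 1 was called, CCR9, with a median of 9.84 points. CCR7, the lymph-node homing receptor, had 10.6, 19, 17.8 and 17.8% in P38i against 10.6, 11.8, 0 and 3.42% in control and did not pass. Of 85 tested zinc finger genes ZNF853 was called, with a median of 2.47 points, close to that of all genes. Developmental transcription factors, classic targets of the mark, held 60 tested genes with none called in either direction (unadjusted p under 0.05 in 12 higher and 3 lower genes), and their median difference was 7.36 points. LHX2, a homeobox regulator of forebrain and hair follicle, had 27.1, 38.4, 24.1 and 15.1% in P38i and 23.4, 12.1, 0 and 0% in control. Of 39 HOX genes 6 were tested and none called, the most apart being HOXC13, a hair regulator with 71.1, 62.9, 71.7 and 66.4% in P38i and 70.8, 0, 64.5 and 26.7% in control, and HOXC11 with 0, 41.2, 51.9 and 12.3% in P38i and no island in control. Keratin-associated proteins had a median of 9.97 points over 45 tested genes and olfactory receptors one of 0.413 points over 207, with none called in either list. In the trimmed lists the median of the developmental factors was 0.556 points and that of the chemokine receptors 9.05.

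Genes of inflammation, invasion and breast lineage did not pass. PTGS2, the inducible cyclooxygenase and a p38-dependent transcript, was covered to 94.1, 56.6, 50.8 and 42.0% in P38i and to 90.4, 83.1, 65.5 and 52.2% in control. MMP9, a gelatinase of invading cells, had 74.7, 41.5, 65.2 and 32.0% in P38i and 39.9, 13.1, 39.9 and 30% in control. MMP13, a collagenase, lay the other way, with 66.5, 41.7, 50.7 and 0% in P38i and 64.4, 69.9, 86.8 and 47.4% in control, a difference of -27.4 points (limma adjusted p = 0.654). The invasion list had 5 tested genes, 4 of them with a difference above 0, and a median of 1.04 points, which was -0.825 points with 2 of 5 above 0 without control replicate 4. FOXA1, a pioneer factor of luminal cells, had 47.7, 40.7, 72.4 and 45.8% in P38i and 83.2, 65.0, 79.4 and 66.8% in control. In PTGS2, MMP9, MMP13 and FOXA1 the groups overlapped. Of 31 luminal genes 8 were tested and 6 of these had a difference below 0, with a median of -1.62 points, and of 27 inflammatory targets 3 were tested.

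Where the islands themselves differed was read from stretches of windows that separated the groups fully, present in 4 of 4 lists on one side and 0 of 4 on the opposite side. Of 4508715 windows of 200 bp covered in at least 1 of the 8 libraries, 8605 were covered in all 4 P38i and no control library (0.191%), 2865 in all 4 control and no P38i library (0.0635%) and 1465229 in all 8 (32.5%). They formed 2155 stretches gained with P38i, 1721 kb in all, and 863 lost, 573 kb in all. Most gained length lay beside or between islands that control libraries had too. Of the gained stretches 1778 only extended islands overlapping a control island, over 1128.6 kb with a median of 0.4 kb, and 284 of these filled a gap between control islands. In 129 the island was new in every P38i library, over 221 kb with a median of 1.80 kb, and 248 were mixed. Of the lost stretches 771 were islands cut back, 19 were islands lost whole over 28.2 kb, and 73 were mixed. The excess of gained over lost stretches was not kept without the narrowest P38i and control library, which gave 4697 gained and 4729 lost, and without control replicate 4 there were 2955 gained and 2953 lost. In trimmed lists there were 1073 gained and 770 lost, with 6 new and 27 lost whole.

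Of the 129 stretches in new islands, 49 lay inside protein-coding genes, 50 in all. OTOP2 held the longest of these, 3.6 kb on chromosome 17 at 74925201 to 74928800. Further ones lay in GLI1, the transcription factor of Hedgehog signalling (3 kb, 57467201 to 57470200 on chromosome 12), and in PAX7, the regulator of muscle stem cells (2.2 kb, 18686201 to 18688400 on chromosome 1). Another lay in RYR1, the calcium release channel of skeletal muscle (2.2 kb, 38455601 to 38457800 on chromosome 19). A stretch of 1.8 kb overlapped IL36RN, the interleukin-36 receptor antagonist, and ran past the end of its span (113063801 to 113065600 on chromosome 2). GLI1 as a whole was covered to 17.2, 36.6, 50.3 and 19.4% in P38i and was uncovered in every control library (limma adjusted p = 0.155). PAX7 overlapped between the groups, with 36.1, 40.6, 54.6 and 20.3% in P38i and 39.4, 5.53, 5.69 and 12.2% in control (limma adjusted p = 0.385). Whether these stretches are exonic or intronic was not read, since the gene table gives spans only. Stretches of islands lost whole overlapped LAMA2, ATRNL1, RANBP3L and LOC105373146.

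Counted library by library, P38i lists held more islands foreign to control than to each other. In P38i libraries 6.01, 9.26, 6.51 and 5.72% of islands overlapped no island in 3 control libraries (mean over the 4 sets of 3), against 4.16, 7.06, 4.14 and 3.47% that overlapped none in the other 3 P38i libraries. In control libraries 4.52, 4.53, 4.30 and 3% of islands lay outside 3 P38i libraries, against 8.12, 5.08, 4.51 and 3.38% outside the other 3 control libraries. Each P38i library thus had fewer islands outside its own group than outside control, and each control library also had fewer islands outside P38i libraries than outside its own group. P38i lists covered more length on average.

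The combo and EPZ libraries, which took no part in choosing the stretches, were read at the same positions. New islands were covered over 38.1, 25.9, 49.0 and 44.7% of their length in combo libraries and over 24.4, 21.1, 34.8 and 26.8% in EPZ libraries. Extended stretches were covered over 51.3 ± 9.93% in combo and 42.0 ± 8.42% in EPZ (SD, n = 4 each), and stretches lost whole over 18.8 ± 9.35% in combo and 22.7 ± 6.37% in EPZ. The ranges of combo and EPZ overlapped in each class, and combo libraries covered more of the genome as a whole, 565 ± 43.2 Mb against 527 ± 56.4 Mb in EPZ. At the OTOP2 stretch 3 of 4 combo libraries were covered over 94.4% and all 4 EPZ libraries over 0. At the stretch in PAX7 combo libraries were covered to 0, 100, 18.2 and 100% and EPZ libraries to 0, and at that in RYR1 combo to 0, 100, 100 and 100% and EPZ to 54.5, 0, 0 and 0%. At GLI1 the combo values were 80, 0, 20 and 100% and the EPZ values 86.7, 100, 0 and 0%. At ZNF853 all 8 were at 0. Over genes, combo exceeded EPZ in 8 of the 12 called genes and in 106 of the 133 genes whose P38i libraries lay above all controls (79.7%), against 72.8% of all tested genes. No gene passed the test between combo and EPZ (0 genes, limma, with 224 of all tested genes at an unadjusted p under 0.05, or 5.46%). LOC107987433 had no island in combo and 20.3, 31.6, 18.1 and 0% in EPZ. LACRT was covered to 62.6, 33.0, 60.4 and 58.2% in combo and to 42.8, 31.8, 29.6 and 31.8% in EPZ.

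**Figure D3:**
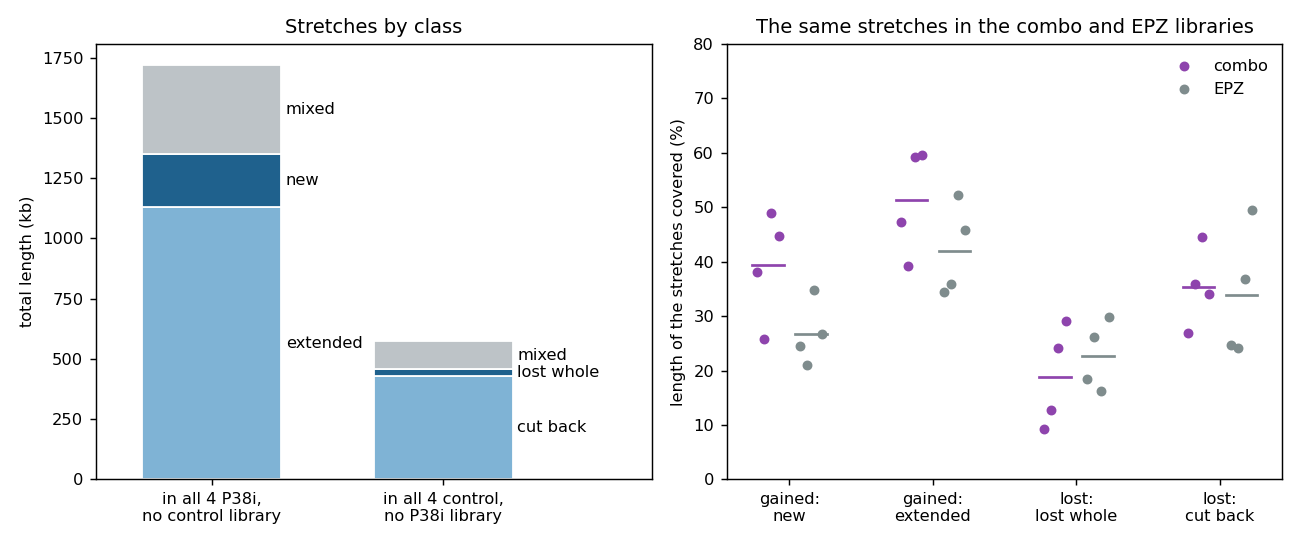
Left, total length in kb of stretches covered in all 4 P38i and no control library and of those covered in all 4 control and no P38i library, stacked by class. Right, percent of the length of these stretches covered in each combo and EPZ library, with a bar at the mean of 4; new stretches average 39.4% in combo and 26.8% in EPZ.

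The genome was also read in 10-kb bins, without regard to genes. None of 91051 tested bins passed in either direction (limma, 0% called), with 3608 higher (3.96%) and 1262 lower (1.39%) at an unadjusted p under 0.05, together 5.35%. All 4 P38i libraries lay above all 4 control libraries in 1421 bins (1.56%) and below them in 367 (0.403%). Over all 302898 bins, tested or not, at least 50% of the bin was covered in all 4 P38i and no control library in 143. The reverse held in 26, while 37273 were so covered in all 8 libraries and 215041 in none of the 8.

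The tested bins in which the groups did not overlap were unevenly spread over gene-rich and gene-poor DNA, a grouping chosen after the data were seen. With no protein-coding gene within 500 kb on each side, 0.763% of tested bins had every P38i library above every control library and 0.604% the reverse. With 1 to 5 genes the shares were 1.13% above and 0.432% below, with 6 to 10 genes 1.83% and 0.336%, with 11 to 20 genes 3.25% and 0.280%, and with over 20 genes 4.36% and 0.126%. The median difference was 0 points in bins with no gene near and 6.5 points in those richest in genes. Without the narrowest library of each group the shares above ran from 1.78% at 0 genes to 7.04% at over 20 and those below from 4.23% to 1.41%, so the order held while the tested bins as a whole were even (3.07% above and 3.27% below). In trimmed lists the shares above ran from 0.318% to 2.31%. Bins next to each other share islands, and no p is given for this order. Per library, the mean coverage of bins with over 20 genes was 15.8, 15.8, 17.1 and 14.0% in P38i and 15.7, 14.0, 13.4 and 12.3% in control (exact permutation p = 0.0571, adjusted over 5 classes 0.286). The share of all covered length that lay on chromosome 19, which is rich in genes, was 1.47 ± 0.0470% in P38i and 1.30 ± 0.101% in control (SD, n = 4 each, exact permutation p = 0.0286, adjusted over 23 chromosomes 0.394).

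**Figure D4:**
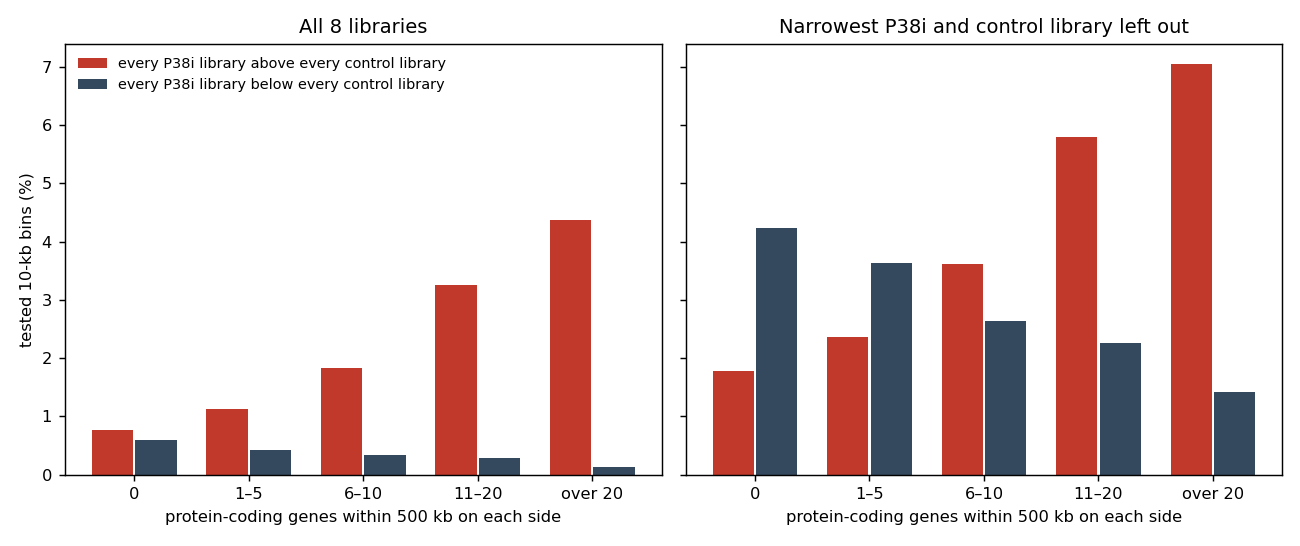
Percent of tested 10-kb bins (y axis) in which every P38i library lies above, or below, every control library, by the number of protein-coding genes within 500 kb on each side (x axis), for all 8 libraries and without the narrowest of each group. Bars for P38i above grow from the bins with 0 genes to those with over 20, and bars for P38i below shrink, in both panels.

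The longest run of neighbouring bins with P38i above control was 50 kb between IFI44 and ADGRL4 on chromosome 1 (78750001 to 78800000). It was covered to 96.8, 96.8, 98.0 and 69.2% in P38i and to 0, 3.20, 12.4 and 12.8% in control. It holds no protein-coding gene. IFI44 is an interferon-induced gene, and ADGRL4 is an adhesion receptor of endothelial cells. The longest gained stretch of all, 9.6 kb, lay there at 78787401 to 78797000, where it extended islands of control libraries. A second run of 20 kb began 80 kb farther on and reached into ADGRL4 (78880001 to 78900000), with 100, 71.0, 100 and 75% in P38i and 16.0, 10.0, 0 and 0% in control. In the 50-kb run combo libraries were covered to 43.2, 28.8, 96.8 and 14.0% and EPZ libraries to 68.4, 32.8, 30.4 and 30.8%. The 9.6-kb stretch was covered to 100, 0, 100 and 0% in combo and to 89.6, 100, 100 and 100% in EPZ, so it was not particular to P38i. Of 1347 runs with P38i above control, 1278 were a single bin, and the longest of the runs below control were 5 pairs of bins.

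**Figure D5:**
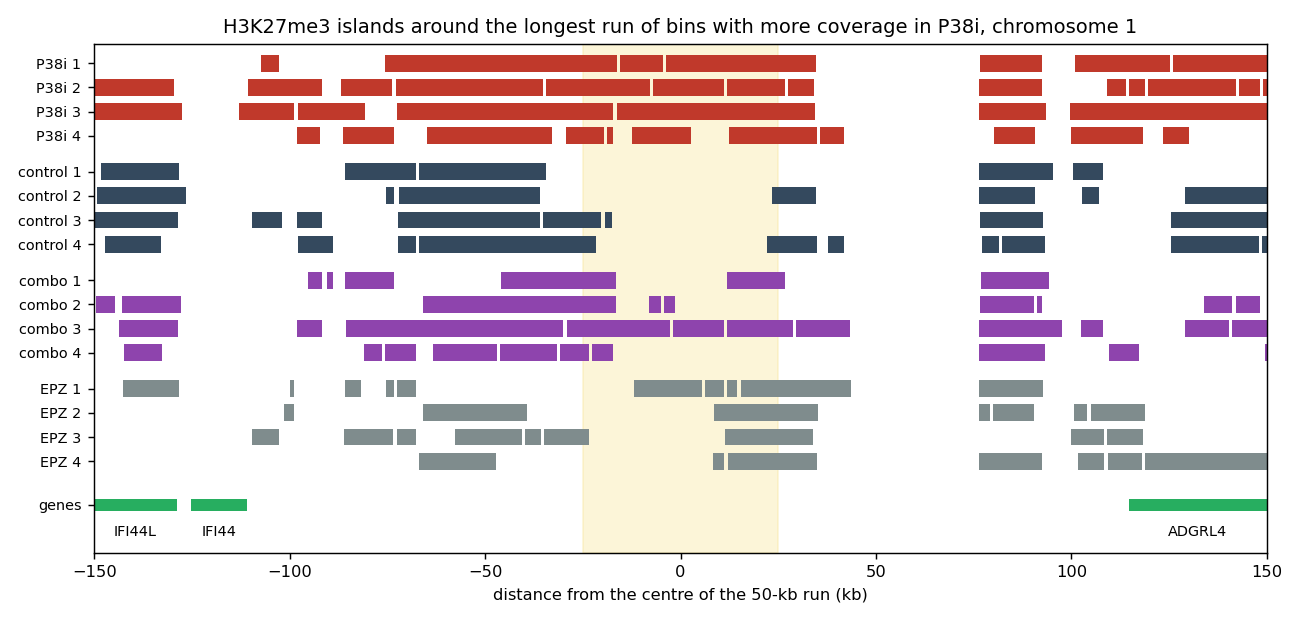
Islands in each of the 16 libraries (rows) by distance in kb from the centre of the 50-kb run on chromosome 1, which is shaded, with protein-coding genes at the foot. In P38i libraries islands span most of the shaded run, and in control libraries they lie outside it or reach only into its outer parts.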

How the data were processed

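ChIPmentation for H3K27me3 gave 1 island list per library, 4 each for P38i, control, combo and EPZ. Per the labels and the submitters' processing notes, the authors worked on hg38 with SICER, bedtools 2.28.0, SAMtools 1.2, Picard, Bowtie2 2.3.4.1 and the read trimmers and checkers cutadapt, Trim Galore and FastQC. The caller settings were not given in the sources used here. The deposited values are island starts and ends, other than which the files give no unit, score or depth. Read depth is therefore unknown, and a deeper library can give more or wider islands. In the files bounds fell on 200-bp windows, the smallest gap was 800 bp and the narrowest island 200 bp.

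Chromosomes 1 to 22 and X were kept. Gene spans came from RefSeq (GRCh38.p14). Percent coverage of genes (2.5 kb flanks) and of 10-kb bins, with a mean of 5 to 95%, entered limma 3.58.1 with trend and robust options under R 4.3.3, adjusted by Benjamini-Hochberg. Library totals were compared by 2-sided exact permutation tests. Stretches and lists were described without a test. The rest was done in scipy 1.17.1, pandas 2.3.3 and numpy 2.4.6 on Python 3.11.15. The gene fit was tested on simulated data. Called genes were named up to 20 per direction, or the 5 of largest t, plus 2 per list and the p38 genes and EZH2. For stretches the longest were named, and other new islands in genes, FAM3D, RASGRP2, KRT79, KRT78, KRT2 and the runs of bins were named after their values were seen. The comparison and all 16 lists were chosen with earlier results of these data known. Alternatives changed flank, bin size, filter, scale, island width, covered length, replicate block and libraries used.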

Additional observations from a re-analysis of the deposited data

Results flagged for a closer look

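The change combo minus EPZ, less the change P38i minus control, passed the test at 2 genes, both with groups at 0 in all libraries. At ZNF853 it was -24.5 points (limma adjusted p = 0.0212). Combo, EPZ and control libraries were all at 0 there, so this value only restates P38i minus control and shows nothing further. At LOC107987433 it was -48.0 points (limma adjusted p = 0.0212), where combo and control libraries were all at 0, and that p too rests on groups with no spread.

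A single library lay far from the other 3 of its group in 17 of 94 groups of 4 values examined. Chance alone gives about 1 in 20, and coverage that is 0 in 3 libraries gives such a gap by its nature. In control libraries these were LACRT at 50.6% in replicate 2, LOC124903734 at 19.6% and ALOX15 at 8.74% in replicate 4, TAC3 at 26.0% and CCR9 at 18.1% in replicate 1, and DEFB108B at 37.9% and ANKRD35 at 14.0% in replicate 3. Further control values apart were LOC127898563 at 35.7% in replicate 4, CXCL10, an interferon-induced chemokine, at 67.7% and ZNF232 at 5.43% in replicate 2, and the olfactory receptor OR14K1 at 58.6% in replicate 1. In P38i libraries they were TAS2R9 at 9.99%, CCR7 at 10.6% and the protocadherin PCDHB2 at 67.0% in replicate 1, PAX9 at 2.47% in replicate 4 and CXCL10 at 46.1% in replicate 2. The share of covered length in bins with 1 to 5 genes near was apart in control replicate 4, at 55.0%.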

How the results depend on the processing

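All 12 called genes kept a higher mean in P38i under every alternative in which they were tested. Every P38i library lay above every control library there, so leaving libraries out could not turn the direction, which is no support. Over these genes and the alternatives the call was kept 143 times and lost 76 times. The number called higher was 6 with covered length as a covariate, 0 in the fit of the 8 libraries, 6 (with 2 lower) without the narrowest P38i and control library, 20 (with 1 lower) at a 5-kb flank, 20 (with 1 lower) with no filter on mean coverage, and 1 (with 2 lower) in lists trimmed to the shortest covered length. It ran from 4 to 31 with 1 library left out and the number lower from 0 to 1, with 4 higher without P38i replicate 3, 28 without P38i replicate 4 and 31 without control replicate 1. The cause was not tested. With replicate number as a block 8 genes were called higher, and no bin. Same-numbered P38i and control libraries correlated in their deviations at -0.0156, 0.00862, 0.00765 and 0.178 over the tested genes, so the numbers were not taken to pair the libraries. The blocked sign-flip p of covered length was 0.375 (exact). Of bins, 14 were higher and 6 lower with no filter, and 0 to 3 were higher and 0 to 4 lower with 1 library left out.

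Stretches covered in at least 3 of 4 libraries of a group and at most 1 of 4 of the other numbered 33294 gained (2980 new, 26798 extended) and 20241 lost (981 lost whole, 17885 cut back). At 1 kb or more there were 660 gained (380 extended) and 183 lost (114 cut back). Trimmed lists gave 1073 gained, 6 new and 1013 extended. Without the narrowest library of each group there were 4697 gained (326 new, 3942 extended) and 4729 lost (168 lost whole, 4262 cut back). With 1 library left out, which asks for 1 library fewer, there were 2955 to 7118 gained (184 to 366 new, 2358 to 5860 extended) and 1312 to 2953 lost (31 to 87 lost whole, 1169 to 2743 cut back). Covered length differed by -5.68 Mb without the narrowest library of each group (exact p = 1) and by -4.25 to 59.8 Mb with 1 library left out. The number of islands then differed by -280 to 8845 and median width by -0.950 to 0.183 kb.

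Among other named genes EZHIP turned to -0.967 points without the narrowest libraries, -1.03 with the covariate of covered length, -5.27 with no flank and -4.87 in trimmed lists, and ran from -0.668 to 16.5 with 1 library left out. In trimmed lists GADD45G turned to 0.210 points and PCDHB3 to -2.99. With 1 library left out MEF2C ran from -0.383 to 5.42 points, and turned to -0.242 without P38i replicate 1, and CXCL10 ran from -16.9 to 11.5. None of these passed the test.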
